A study of Mus musculus with 3 samples.

Results

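The genes described here are 10 members of the Hippo pathway and its set of Yap target genes, of 27998 genes counted in single nephron progenitors of the fetal mouse kidney. They were chosen by symbol: the kinases Lats1 and Lats2, the coactivators Yap1 and Wwtr1 (the gene of Taz), their DNA-binding partners Tead1 and Tead2, and the targets Cyr61, Amotl2, Ctgf and Ankrd1. The cells came from Six2GFP+ embryos at E14.5, with kidneys of several litters divided over 3 tubes, and were sorted for green fluorescence with gates against dead cells, debris and doublets. Each tube was run as 1 library on the 10x Chromium system (version 2 chemistry), and all cells share the Six2GFP+ strain; the labels give no treatment and no second genotype. The labels do not tie the samples Six2a, Six2b and Six2c to library 1, 2 or 3. Since each library pools litters and the labels name no separate cultures, the p-values below measure only the spread over 3 tubes, which may be technical.

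Cells were placed in stages of commitment by the transcripts they held, counted as UMIs (unique molecular identifiers, which mark single captured RNA molecules). Six2, a transcription factor that keeps progenitors uncommitted, was required with Wnt4 at 0 for the first stage, which held 6027 cells. Of these, 36 also held Lhx1 and were counted once, with the last stage, leaving 5991 Six2-positive cells (2167, 2154 and 1670 in libraries 1, 2 and 3). Wnt4, the signal that starts the change of progenitors into epithelium, was present without Lhx1 in 410 Wnt4-positive cells (199, 103 and 108). Lhx1, a homeobox gene of the first epithelial vesicles, was present in 79 Lhx1-positive cells (31, 29 and 19). Of these, 24 (30.4%) also held Wnt4, 11, 3 and 10 in libraries 1, 2 and 3, and 48 (60.8%) held Six2. That the last stage follows the Wnt4-positive cells was not tested. A further 1395 of the 7875 kept cells held none of the 3 transcripts. The sort by Six2 fluorescence sets how many cells reach each stage, so the sizes of the stages are not a result.

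The levels of progenitor and early nephron markers followed these names, in part by the grouping rule itself, because the progenitor markers include Six2 and the early nephron markers include Lhx1. Summed over 8 nephron progenitor markers, the level was 1310 to 1900 CPM (UMIs per 1000000 UMIs of the cell group in that library) in Six2-positive, 907 to 1430 in Wnt4-positive and 659 to 1260 in Lhx1-positive cells. Summed over 8 early nephron markers, it was 4.33 to 6.94, 12.2 to 18.9 and 321 to 372 in the same order of stages. Summed over 6 markers of committing cells, Wnt4 among them, it was 216 to 276, 413 to 503 and 720 to 1230. The committing markers were thus highest in the Lhx1-positive and not in the Wnt4-positive cells. Six2 alone gave 142, 202 and 156 CPM of the progenitor sum in Six2-positive cells of libraries 1, 2 and 3. Lhx1 alone gave 112, 174 and 162 CPM of the early nephron sum in Lhx1-positive cells, and none by rule in the other stages. Ureteric markers, 8 genes, were also highest in the Lhx1-positive cells, at 60.7 to 270 CPM, against at most 4.22 in the other stages. Whether some Lhx1-positive cells are ureteric was not tested. Median depth was 12121.5 to 16233 UMIs per cell in Six2-positive, 14039 to 20098 in Wnt4-positive and 11734 to 22667 in Lhx1-positive cells, and 22 barcodes occurred in more than 1 library. As a cell type that should lack Yap1 and Tead transcripts, 73 cells with at least 3 of 6 immune markers were kept as a comparison, at a median of 9468 UMIs per cell. Leaving out these and haemoglobin-rich cells, an alternative, took only 3 Six2-positive, 1 Wnt4-positive and 0 Lhx1-positive cells out of the stages.

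In the Hippo pathway a chain of kinases ends in Lats1 and Lats2, which phosphorylate the coactivators Yap1 and Wwtr1 and so hold them in the cytoplasm. When the kinases are quiet, both coactivators enter the nucleus, bind the Tead proteins and switch on genes such as Cyr61 and Ctgf, which encode secreted matrix proteins, Ankrd1, which encodes an ankyrin repeat protein of muscle and other cells, and Amotl2, which encodes a junction protein that itself binds and retains Yap. Activity of the pathway is set by phosphorylation and location of the proteins, which RNA counts do not show. In the fetal kidney, the pathway is known to act in nephron progenitors and in the stroma around them.

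The promoters of the targets that moved in these data are shown because the Tead proteins bind the letters GGAATG, read on either strand (CATTCC on the other), marked by capitals. They are the 250 bases before the RefSeq transcript start (GRCm38.p6), written 5′ to 3′ along the strand of the gene. The Cyr61 window is chr3:145649986-145650235 on the minus strand, with the match 103 to 98 bases before the start. The Amotl2 window is chr9:102717554-102717803 on the plus strand, with the match 65 to 60 bases before the start.
Cyr61: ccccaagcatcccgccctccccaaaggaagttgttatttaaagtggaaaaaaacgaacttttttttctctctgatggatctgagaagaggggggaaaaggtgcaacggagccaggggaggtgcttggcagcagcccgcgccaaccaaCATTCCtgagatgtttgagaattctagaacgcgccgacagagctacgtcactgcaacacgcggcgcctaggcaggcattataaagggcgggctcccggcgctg
Amotl2: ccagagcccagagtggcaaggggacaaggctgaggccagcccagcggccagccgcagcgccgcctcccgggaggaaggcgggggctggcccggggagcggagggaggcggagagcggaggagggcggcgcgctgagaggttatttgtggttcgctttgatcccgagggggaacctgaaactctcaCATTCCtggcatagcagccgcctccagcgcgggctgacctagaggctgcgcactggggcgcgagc

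Promoter sequences were found for 8 of the 10 members, all but Ctgf and Tead1. The Tead letters occurred in those of Cyr61, Amotl2, Ankrd1 (at 2 places), Yap1 and Wwtr1, 5 of 8 members, and in 12.6% of 32851 promoters of the same length. They did not occur in these windows of Tead2, Lats1 and Lats2. The AP-1 letters TGANTCA, bound by Fos and Jun proteins and their own reverse complement, occurred in 6.75% of promoters, the CRE letters TGACGTCA in 1.55%, and the CArG box of the serum response factor in 1.47%. None of these other 3 motifs was in the Cyr61, Amotl2 or Ankrd1 window. A match is a description of letters and not a measured binding site.

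In level, the 10 genes fell into 2 that were nearly or wholly unseen and 8 that could be followed. Ankrd1 (chr19:36111961-36120099, minus strand; gene positions are those of the GRCm38 annotation) had 0 UMIs in 7875 cells and 121257815 UMIs, which allows a level of up to 0.0247 CPM and a share of up to 0.0381% of cells (3 counts of the total, as for every value at 0). Its promoter carries the Tead letters at 2 places, yet no UMI was counted in any stage. Ctgf (chr10:24595442-24598683, plus strand) had 37 UMIs in 35 cells, a share of 0.444% (exact 95% binomial interval 0.31% to 0.618%). Its level in Six2-positive cells was 0.297, 0.283 and 0.246 CPM in libraries 1, 2 and 3, so the libraries were alike at this low level. Of the 35 cells, 25 were Six2-positive, 4 Wnt4-positive and 0 Lhx1-positive, where 0 of 79 cells allows a share of up to 3.8%, and 6 were in no stage. Cyr61 UMIs were found in 17 of the 35 cells with Ctgf and in 37.8% of all kept cells, a difference that was not tested. Intervals and these limits cover counting error only. Neither Ankrd1 nor Ctgf passed the filter on low counts, so every test below is on the other 8 members.

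**Figure D1:**
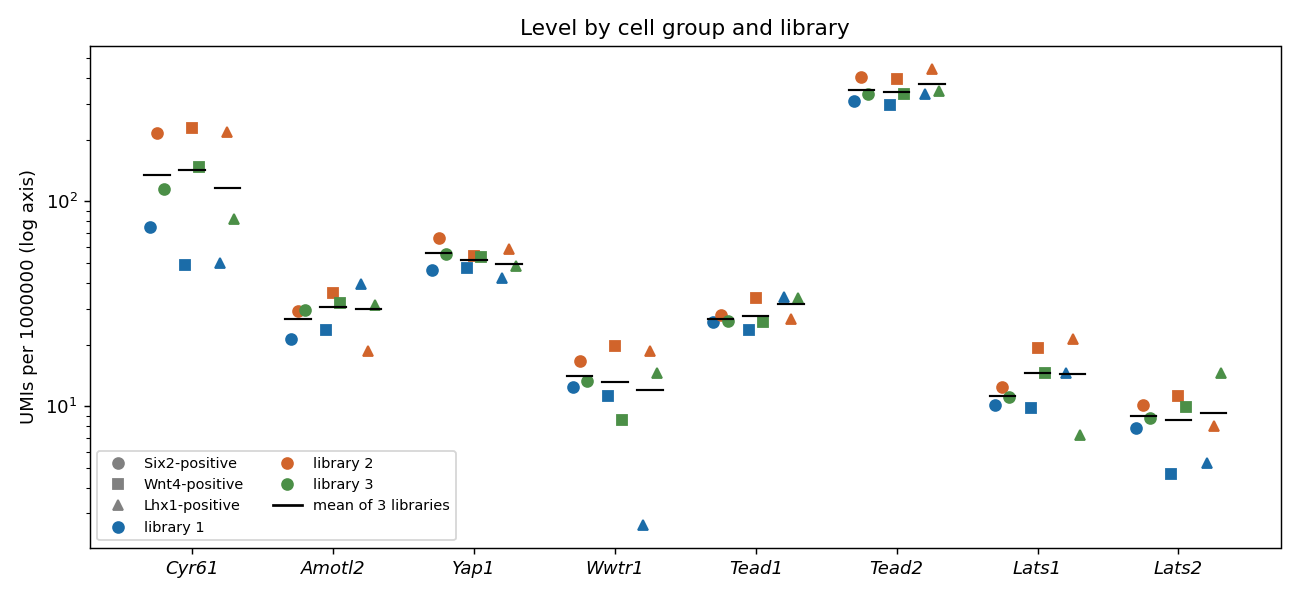
Levels of the 8 Hippo pathway genes that could be tested, as CPM on a log axis, by stage (symbol) and library (colour), with the mean of 3 libraries as a bar. Cyr61 spans 49.2 to 228 CPM over the stages and libraries, with library 2 highest in all 3 stages, whereas the stage means of Yap1 lie between 49.7 and 55.9.

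The kinase genes were the most thinly counted of the 8. Lats1 (chr10:7681214-7716460, plus strand) ranged over the 3 libraries from 10.1 to 12.4 CPM in Six2-positive, 9.84 to 19.2 in Wnt4-positive and 7.23 to 21.4 in Lhx1-positive cells. Lats2 (chr14:57689662-57758388, minus strand) averaged 8.93 ± 1.21, 8.59 ± 3.45 and 9.27 ± 4.73 CPM in these stages (SD, n = 3 libraries). In neither gene did the stages stand apart, and the spread over libraries grew as the cells grew fewer. At an equal depth of 5000 UMIs per cell, Lats1 was found in 5.17% ± 0.621 of Six2-positive cells and in 5.81% ± 2.19 of immune cells (SD, n = 3; 5935 and 68 cells deep enough). Lats2 was found in 4.47% of Six2-positive and 6.01% of immune cells at that depth. The immune cells thus held the kinase transcripts at shares like those of the progenitors, so they give no background level for Lats1 and Lats2. Without that equal depth the shares were 15.7% and 6.89% for Lats1 and 12.7% and 9.55% for Lats2.

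The coactivator genes showed no shift between the stages beyond the spread over libraries. Yap1 (chr9:7931999-8004596, minus strand) had 46.2, 66.5 and 55.1 CPM in Six2-positive cells of libraries 1, 2 and 3, against 11.0, 0 and 11.2 in immune cells. In Wnt4-positive cells Yap1 had 47.3, 54.3 and 53.7, and in Lhx1-positive cells 42.2, 58.8 and 48.2 CPM. The 3 stages overlapped, and every library of each stage lay above every library of the immune cells. At equal depth Yap1 was found in 24.1% of Six2-positive cells and in 0 of 68 immune cells, which allows a share of up to 4.41%. Wwtr1 (chr3:57455649-57575910, minus strand), whose product Taz acts alongside Yap, averaged 14.1 ± 2.21, 13.2 ± 5.87 and 11.9 ± 8.33 CPM over the stages, again overlapping, and had no UMI in the immune cells, which allows up to 4.01 CPM there.

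Of the DNA-binding partners, Tead2 was present in nearly every progenitor. Tead2 (chr7:45215753-45233644, plus strand) had 309, 404 and 334 CPM in Six2-positive cells of libraries 1, 2 and 3, 295, 395 and 333 in Wnt4-positive cells and 334, 444 and 347 in Lhx1-positive cells. Library 2 was highest in each stage and the stages overlapped. Tead2 was found in 98.7% ± 0.493 of Six2-positive cells (82.1% ± 3.55 at 5000 UMIs), against 6.89% ± 4.86 of immune cells (4.29% ± 4.35 at 5000 UMIs). Tead1 (chr7:112679318-112906807, plus strand) averaged 26.6 ± 1.02, 27.7 ± 5.27 and 31.6 ± 4.23 CPM in Six2-positive, Wnt4-positive and Lhx1-positive cells, against 2.47 ± 2.14 in immune cells. Its share was 12.1% of Six2-positive and 1.39% of immune cells at 5000 UMIs.

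Among the targets, Cyr61 varied with the library and Amotl2 much less. Cyr61 (chr3:145646976-145649981, minus strand) had 74.7, 215 and 115 CPM in Six2-positive cells of libraries 1, 2 and 3, 49.2, 228 and 148 in Wnt4-positive cells, and 50.1, 217 and 82.0 in Lhx1-positive cells. The same order of libraries, with library 2 highest and library 1 lowest, held in each stage. It also held in immune cells, at 36.7, 339 and 101 CPM, and for Fos, at 524, 1090 and 713 in Six2-positive cells. Cyr61 was found in 25.6% of Six2-positive and 22.4% of immune cells at 5000 UMIs (37.8% and 30.0% as counted), so the immune cells give no background level for Cyr61 either. Amotl2 (chr9:102716672-102733418, plus strand) had 21.2, 29.2 and 29.6 CPM in Six2-positive cells, 23.7, 35.7 and 31.8 in Wnt4-positive cells and 39.6, 18.7 and 31.3 in Lhx1-positive cells. Its stages overlapped, and its share was 12.2% of Six2-positive and 1.45% of immune cells at 5000 UMIs.

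Cells held Cyr61 far more unevenly than the other members. Over Six2-positive cells brought to 5000 UMIs, the variance of Cyr61 was 4.09 ± 0.698 times its mean (SD, n = 3 libraries), where counting noise alone gives a value near 1. Only 8 of 9921 genes found in at least 5% of these cells had a higher ratio (0.0806%), and Fos stood at 4.45 and Btg2 at 3.14. Amotl2 had a ratio of 1.07 and Yap1, Wwtr1, Tead1, Tead2, Lats1 and Lats2 had ratios of 0.996 to 1.05, beside a median of 1.02 over all these genes. Amotl2 was exceeded by 12.6% of genes and Tead2 by 19.1%. The ratio lies near 1 in thinly counted genes, and all of these members but Tead2 had fewer UMIs than Cyr61. As counted over all Six2-positive cells, whatever their depth, 70.1%, 54.8% and 61.7% had no Cyr61 in libraries 1, 2 and 3. In the same order, 8.49%, 20.9% and 13.9% had 5 or more UMIs, and the highest cells had 39, 46 and 45. The tenth of cells richest in Cyr61 held 72.8%, 56.6% and 64.9% of its UMIs, against 51.9%, 49.8% and 48.7% for Amotl2. Amotl2 is found in fewer UMIs, which by itself raises such a share. The part of counting and depth in these shares was not tested.

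**Figure D2:**
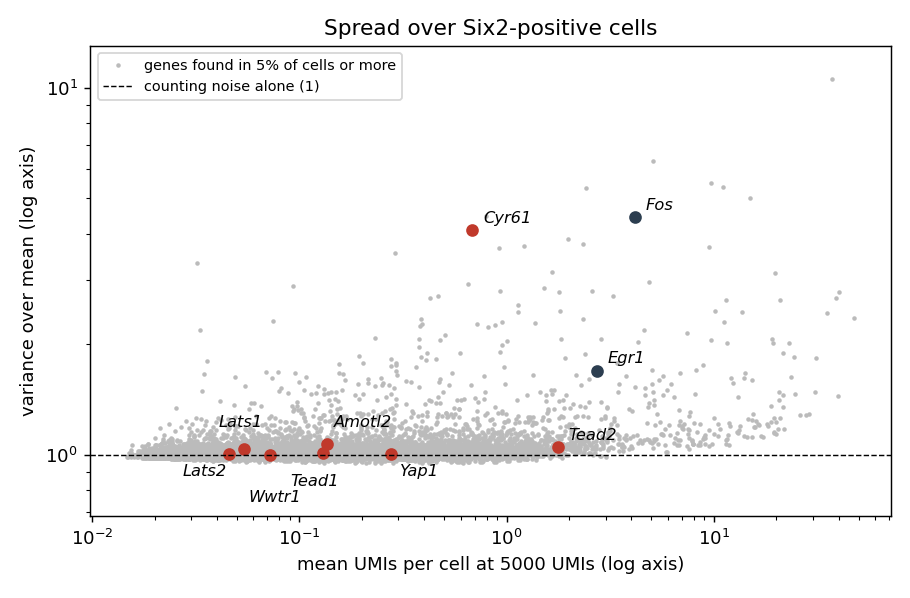
Variance of UMIs over cells divided by their mean, against the mean, in Six2-positive cells brought to 5000 UMIs (both axes log, mean of 3 libraries), for 9921 genes in grey, Hippo members in red and the immediate early genes Fos and Egr1 in dark blue. Cyr61 lies at 4.09 near Fos at 4.45, while the other members lie between 0.996 and 1.07, next to the dashed line of counting noise.

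The first step of commitment, Wnt4-positive against Six2-positive cells, showed no called difference in any member. UMIs were summed per library and stage and tested with edgeR's quasi-likelihood test, the library as a block and an adjusted p under 0.05 as the threshold. By that rule 9.97% of 10192 genes were called (1016; 292 without library 1 and 353 without library 3), against 0 of 8 members, 0 also at an unadjusted p under 0.05 and 0 with DESeq2. The narrowest intervals were those of Tead2, at a log2 difference of -0.04 (95% interval -0.13 to 0.05), and Yap1, at -0.07 (-0.24 to 0.10). Cyr61 stood at -0.02 (-0.24 to 0.20), Amotl2 at 0.16 (-0.10 to 0.42) and Tead1 at -0.003 (-0.24 to 0.24). The intervals were wider for Wwtr1 (-0.55 to 0.24), Lats1 (-0.09 to 0.64) and Lats2 (-0.64 to 0.26). The median over the 8 members was -0.03, and over all genes tested -0.01.

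Cyr61 was called lower in 1 alternative setting, where commitment was defined by at least 2 Wnt4 UMIs. In those 130 cells (69, 15 and 46 in libraries 1, 2 and 3) it had 44.0, 183 and 99.4 CPM, against 74.7, 215 and 115 in the Six2-positive cells. Each library was lower in the Wnt4-positive cells, although the ranges over libraries overlap. The log2 difference was -0.41 (edgeR adjusted p = 0.00903), the only one of 13 alternative settings in which it was called, with estimates from -0.41 to 0.27. The share of all genes called in that setting is not given here, so this call is not read as a result about the members. Immediate early genes, which cells switch on at once when stimulated and during tissue dissociation, fell in the same comparison, Fos by 0.77, Junb by 1.23 and Egr1 by 0.58 on the log2 scale. With any Wnt4 UMI, Fos was already lower (-0.39, edgeR adjusted p = 0.0224). The part of Fos in the Cyr61 difference at 2 Wnt4 UMIs was not tested.

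The second step, Lhx1-positive against Wnt4-positive cells, also left all 8 members without a called difference, beside 1.17% of 10192 genes (119; 35 without library 1, 181 without library 2). No member had an unadjusted p under 0.05, and DESeq2 called none. Tead2 came nearest, at a log2 difference of 0.14 (95% interval 0.00 to 0.29; edgeR adjusted p = 0.537), and was higher in the Lhx1-positive cells in 3 of 3 libraries. Cyr61 stood at -0.26 (-0.70 to 0.18) and Amotl2 at 0.18 (-0.36 to 0.71). With 19 to 31 Lhx1-positive cells per library the intervals of Wwtr1 (-1.27 to 0.59) and Lats2 (-0.84 to 1.15) were wide and did not exclude a difference of 1 on the log2 scale, lower for Wwtr1 and higher for Lats2.

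Other genes of the pathway, from lists chosen by function, moved in part at the first step. Of 19 further kinase and junction genes tested, 1 rose and 3 fell, beside 4.82% of all genes higher and 5.15% lower. Ptpn14, a phosphatase that binds Yap, was higher in Wnt4-positive cells (log2 difference 0.59, SE 0.15, edgeR adjusted p = 0.0129). Amot, a relative of Amotl2 that holds Yap at junctions, was lower (-0.59, SE 0.13, edgeR adjusted p = 0.00491), as were Wwc2, a junction scaffold (-0.34), and Rassf1, which binds the upstream kinases (-0.24). Vgll4, which competes with Yap for the Tead proteins, fell by 0.30 (edgeR adjusted p = 0.0212), 1 of 2 tested of 5 nuclear partners. Of 12 further Yap targets tested, Fjx1, the relative of the fly gene four-jointed, rose (0.67) and Ccdc80 (-0.90), Dock5 (-0.65) and Gadd45a (-0.47) fell. DESeq2 called 0 of the 19, 0 of the 2 and 3 of the 12, beside 3.75% of all genes. At the second step edgeR and DESeq2 called 0 of the 19, 2 and 12 genes, with 0, 0 and 2 at an unadjusted p under 0.05. Of 18 immediate early genes, 9 fell and 0 rose at the first step (median -0.29), and edgeR called 0 at the second, with 5 at an unadjusted p under 0.05 and 0 with DESeq2. Of 13 actin genes and targets of the serum response factor, Tpm2 (-0.65), Cnn2 (-0.48) and Actg1 (-0.14) fell at the first step and Tpm1 rose (0.71) at the second. The medians of the kinase and junction genes, the partners and the further targets at the first step were -0.11, -0.15 and -0.12, beside -0.01 over all genes.

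**Figure D3:**
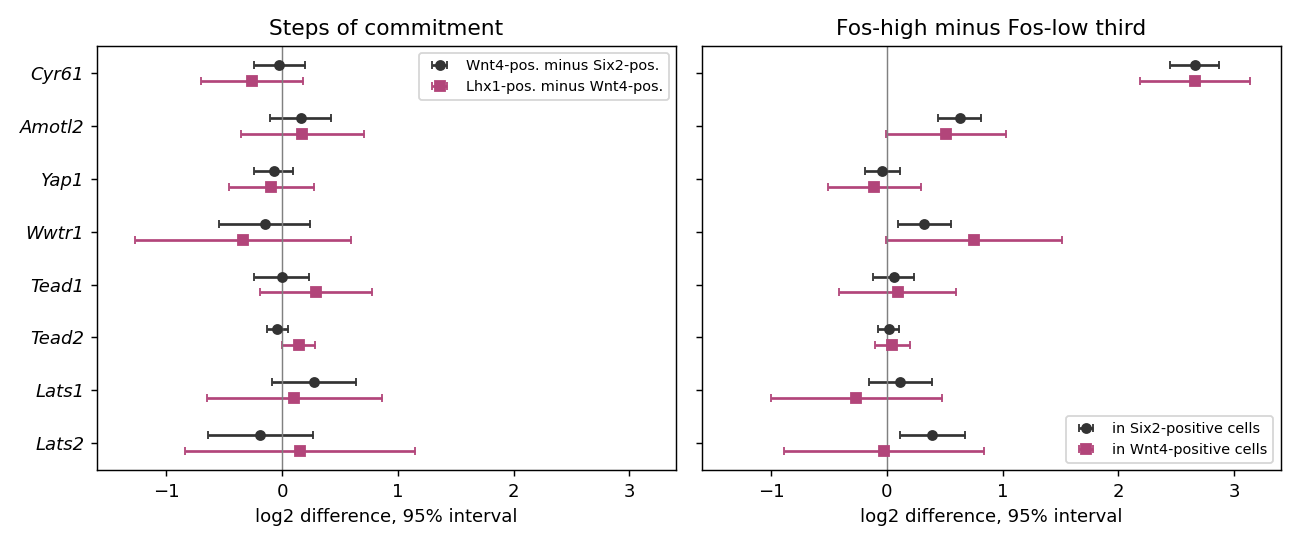
Log2 differences of the 8 tested members with 95% intervals from edgeR, for the steps of commitment (left) and for Fos-high minus Fos-low cells (right). On the left every interval includes 0; on the right Cyr61 stands at 2.66 in both stages and Amotl2 at 0.63 in Six2-positive cells.

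Within one stage, Cyr61 and Amotl2 were higher in cells rich in Fos, the immediate early transcription factor. Six2-positive cells of each library were ordered by Fos per 10000 UMIs, and the upper of 3 equal parts (Fos-high: 723, 718 and 557 cells) was set against the lowest (Fos-low, the same numbers). By edgeR, 1657 of 11440 genes were called (714 without library 1 and 1011 without library 3), 7.33% of all genes higher and 7.16% lower in the Fos-high cells. Of the 8 members, 2 were called, both higher in the Fos-high cells, a count to be read beside those shares.

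Cyr61 had 148, 401 and 223 CPM in Fos-high cells of libraries 1, 2 and 3, against 16.5, 73.9 and 40.2 in Fos-low cells. The groups did not overlap, and the gap was as plain in the library with the least Cyr61 as in the one with the most. The log2 difference was 2.66 (SE 0.10, 95% interval 2.45 to 2.87, edgeR adjusted p = 1.77e-17). It lay between 1.82 and 2.81 over 12 alternative settings and was called in 11 of them, all but the fit without the library block (adjusted p = 0.172 by edgeR).

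Amotl2 had 26.6, 34.0 and 33.0 CPM in Fos-high cells, against 16.0, 22.9 and 22.8 in Fos-low cells. Here too every Fos-high value lay above every Fos-low value. The log2 difference was 0.63 (SE 0.09, 95% interval 0.44 to 0.82, edgeR adjusted p = 1.55e-05). It was called in 10 of 12 alternatives, with estimates from 0.37 to 0.66. It was not called with cells thinned to 5000 UMIs (0.46, edgeR adjusted p = 0.065) or without the library block (adjusted p = 0.183 by edgeR). In the thinned test the groups were drawn again from the thinned counts. That left 508, 545 and 329 Fos-high cells in libraries 1, 2 and 3.

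The coactivators, partners and kinases upstream of these targets showed smaller differences, none of them called. Yap1 had 42.6, 71.2 and 52.8 CPM in Fos-high cells, against 47.9, 66.6 and 57.1 in Fos-low cells (log2 difference -0.04, 95% interval -0.19 to 0.11). Tead2 had 296, 418 and 340 in Fos-high cells, against 318, 394 and 336 in Fos-low cells (0.02, -0.07 to 0.11). For both the groups overlapped and the libraries did not move one way. Tead1 (0.06, -0.12 to 0.24) and Lats1 (0.12, -0.16 to 0.39) were likewise within their error.

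Wwtr1 and Lats2 narrowly missed the threshold and were not called. Wwtr1 had 14.4, 17.2 and 15.4 CPM in Fos-high cells, against 10.5, 16.0 and 11.8 in Fos-low cells, higher in 3 of 3 libraries (log2 difference 0.32, SE 0.11, edgeR adjusted p = 0.051). Lats2 had 7.73, 11.1 and 11.9 in Fos-high cells, against 6.81, 8.71 and 7.87 in Fos-low cells, also higher in 3 of 3 (0.39, SE 0.14, edgeR adjusted p = 0.0508). For both the ranges of the groups overlapped. Wwtr1 was called in 4 alternatives, among them that without library 2 (0.44, edgeR adjusted p = 0.0311), and Lats2 in 3.

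**Figure D4:**
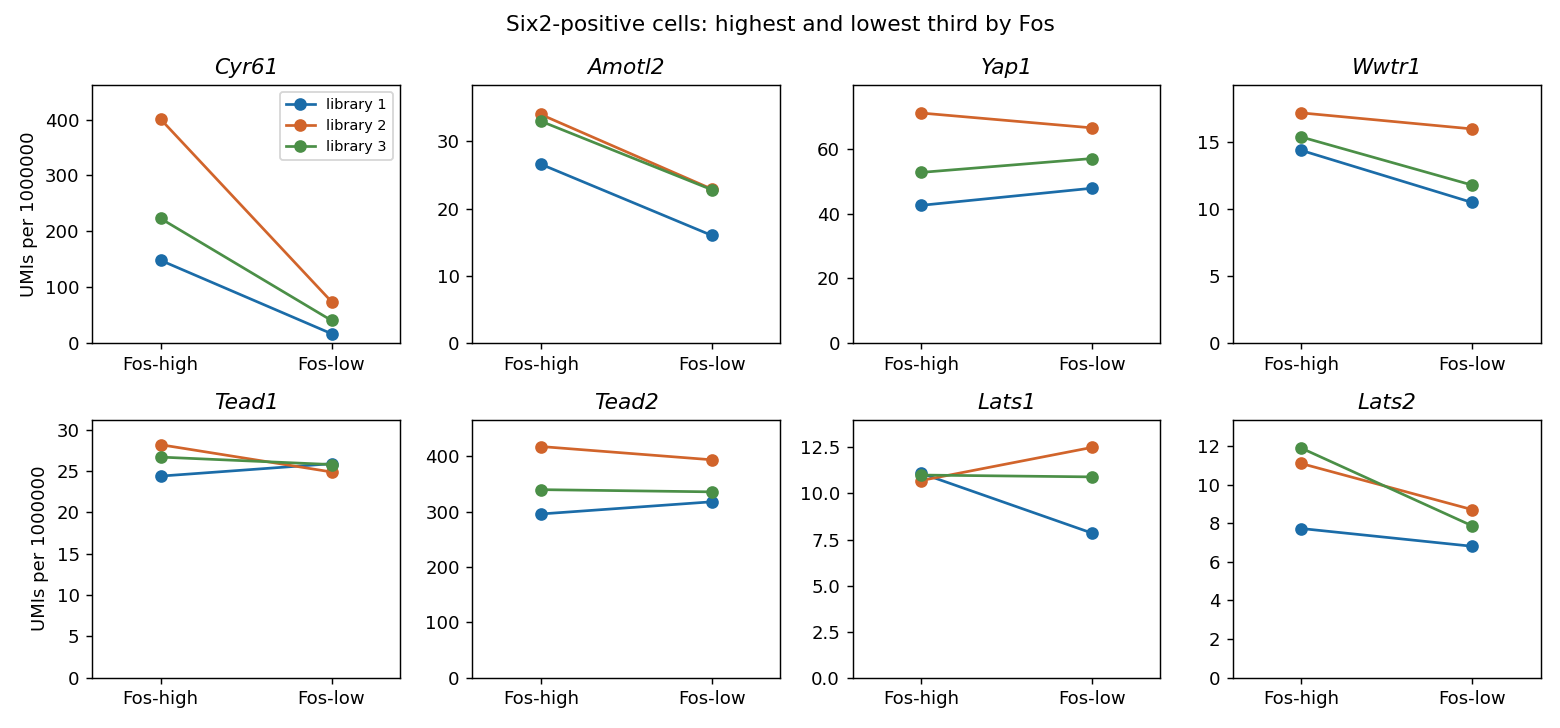
CPM of the 8 tested members in Fos-high and Fos-low Six2-positive cells, one line per library, each axis starting at 0. Cyr61 and Amotl2 are higher in the Fos-high cells of all 3 libraries without overlap; the lines of Yap1, Tead1, Tead2 and Lats1 cross or run in different directions.

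The Fos-high cells differed from the Fos-low cells in other measures too. Their median depth was 15065, 10819.5 and 14741 UMIs in libraries 1, 2 and 3, against 16796, 13242.5 and 16644 in Fos-low cells. Mitochondrial UMIs were 3.42%, 3.56% and 3.37% in Fos-high cells, against 3.19%, 3.31% and 3.20% in Fos-low cells. Stromal markers summed to 100, 151 and 113 CPM in Fos-high cells, against 99.4, 118 and 104 in Fos-low cells, and immune markers to 1.44 to 16.5, against 1.37 to 18.6. The part of depth, mitochondrial share and stromal RNA in these differences was not tested beyond the thinned cells.

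Across the range of Fos the pair of targets took different courses. With Six2-positive cells in 5 equal parts from low to high Fos, Cyr61 had 8.25, 34.5, 59.8, 119 and 162 CPM in library 1. It had 46.4, 125, 203, 334 and 421 in library 2, and 21.4, 63.4, 86.3, 154 and 273 in library 3. Cyr61 was thus higher at every step in each library. Amotl2 had 14.3, 17.3, 22.5, 29.0 and 23.1 in library 1, 19.1, 27.9, 33.5, 35.6 and 30.8 in library 2, and 20.9, 28.7, 32.0, 33.9 and 33.0 in library 3. Amotl2 was highest at the fourth step and not at the last in all 3 libraries, a step down that was not tested.

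**Figure D5:**
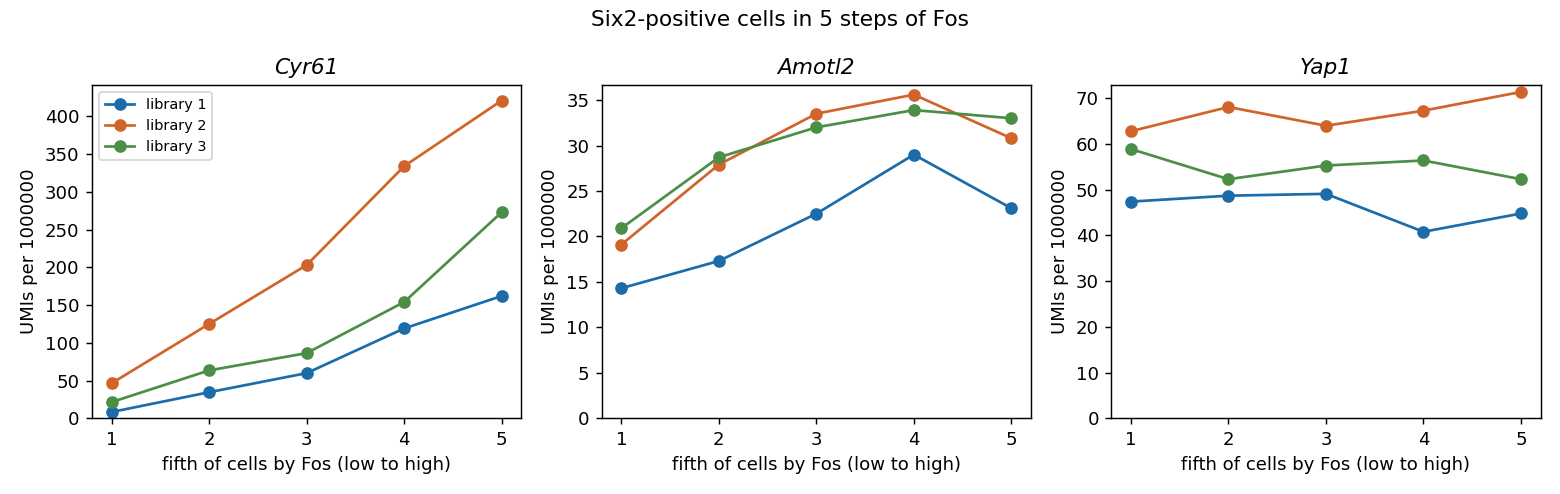
CPM of Cyr61, Amotl2 and Yap1 in 5 equal parts of the Six2-positive cells, ordered from low to high Fos within each library (colour). Cyr61 climbs at every step to 162, 421 and 273 in libraries 1, 2 and 3, Amotl2 is highest at step 4 in each, and Yap1 shows no common course.

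Cell by cell, Cyr61 was among the genes most closely tied to Fos. Pearson's r between log-scaled Cyr61 and Fos over Six2-positive cells was 0.325, 0.359 and 0.33 in libraries 1, 2 and 3 (2167, 2154 and 1670 cells, which share a tube and differ in depth). The mean of 0.338 was exceeded by 8 of 9920 genes (0.0806%), beside a median of -0.005 over these genes. For Amotl2 r was 0.1, 0.093 and 0.084, a mean exceeded by 1.58% of genes. The other members had means of -0.023 (Yap1) to 0.039 (Lats2), and the median over the 9 members with any UMI was 0.016. In cells thinned to 5000 UMIs, r was 0.285 for Cyr61 and 0.053 for Amotl2.

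The 5 genes whose pattern over Six2-positive cells was most like that of Cyr61 were all immediate early genes. They were Btg2 (mean r 0.34 over 3 libraries), Fos (0.338), Ier2 (0.285), Junb (0.277) and Jun (0.262). The summed UMIs of Ctgf, Cyr61, Amotl2 and Ankrd1 gave Fos (0.339), Btg2 (0.331), Ier2 (0.28), Junb (0.276) and Hes1 (0.26), a target of Notch signalling, and this sum is mostly Cyr61. For Ctgf, with 35 cells, no gene passed 0.066, which is no finding. Between members, r was 0.107, 0.131 and 0.134 for Cyr61 with Amotl2, and the other 27 pairs of the 8 genes ran from -0.037 to 0.061 with a median of 0.001. Within Fos-high, middle and Fos-low cells taken apart, r of Cyr61 with Amotl2 lay between 0.043 and 0.189, above 0 in all 9 sets.

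The tie of Cyr61 to Fos was also seen in Wnt4-positive cells. Cyr61 had 101, 481 and 293 CPM in Fos-high Wnt4-positive cells of libraries 1, 2 and 3, against 9.12, 80.1 and 58.1 in Fos-low ones. Every Fos-high value lay above every Fos-low value. The log2 difference was 2.66 (SE 0.23, 95% interval 2.19 to 3.14, edgeR adjusted p = 9.45e-09), the only call among 8 members beside 1.63% of 11440 genes (187; 22 without library 1), 1.08% higher and 0.551% lower. Amotl2 stood at 0.51 (-0.01 to 1.02, edgeR adjusted p = 0.426), with 35 to 67 cells per group and library. Immune markers summed to 175 CPM in the Fos-high cells of library 2, against at most 3.57 in the other Fos-high and Fos-low groups, and without the 1 immune or haemoglobin-rich cell among the Wnt4-positive cells, which was in library 2, the Cyr61 difference was 2.66. The Fos difference itself was compared between the stages by an interaction. For Cyr61 it differed by 0.005 on the log2 scale (95% interval -0.59 to 0.60) and for Amotl2 by -0.12 (-0.67 to 0.43), and edgeR called 0 of 11440 genes (620 at an unadjusted p under 0.05; 0 with DESeq2).

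Further pathway and target genes were read in the same Fos comparison of Six2-positive cells. By edgeR, 7.33% of all genes were higher and 7.16% lower in the Fos-high cells, and by DESeq2 3.88% and 6.06% of 7891 genes with an adjusted p. Beside those shares, 5 of 12 other Yap targets tested with edgeR rose and 0 fell: F3, the tissue factor gene (log2 difference 1.02, SE 0.13, edgeR adjusted p = 1.53e-06), Ccdc80 (0.78), the growth factor gene Tgfb2 (0.53), the receptor gene Axl (0.30) and Dock5 (0.27). Their median was 0.27, beside 0.22 over the 8 members and 0.02 over all genes. Of 21 kinase and junction genes, 7 rose and 1 fell. The largest rises were those of Fat4, a giant cadherin upstream of the pathway (0.69, SE 0.13, edgeR adjusted p = 0.000302), the kinase gene Taok3 (0.46), Rassf1 (0.44) and Amot (0.33), and the gene that fell was Stk4, the kinase Mst1 that activates the Lats kinases (-0.35, edgeR adjusted p = 0.0262). Vgll4 rose (0.33, edgeR adjusted p = 6.98e-05). DESeq2 called 1 of the 12, 2 of the 21 and 1 of the 2 partners. In Wnt4-positive cells, edgeR and DESeq2 called 0 of these 12, 21 and 2 genes, with 3, 2 and 0 at an unadjusted p under 0.05.

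For scale, 19 of 21 immediate early genes tested rose with Fos in Six2-positive cells and 14 of 21 in Wnt4-positive cells, with none lower, led in Six2-positive cells by Nr4a1 (2.57), Btg2 (2.36), Fosb (2.30) and Zfp36 (2.22). The Cyr61 difference of 2.66 stood in the range of these leading immediate early genes or above it; the differences between genes were not tested. Of 14 targets of the serum response factor and actin genes tested in Six2-positive cells, 7 rose and 1 fell, with Tagln (1.76), Myl9 (0.54), Cnn2 (0.45) and Actg1 (0.31) the largest rises and Tpm4 lower (-0.17). In Wnt4-positive cells, 2 of the 14 rose, Actg1 (0.36) and Actb (0.19).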

How the data were processed

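The authors deposited counts: whole numbers of UMIs for each gene and cell barcode of the 3 joined libraries, which the submitters' processing notes tie to Cell Ranger 1.3.1 and the build mm10. No further step by the authors is named there. The deposited matrix was used; the text table of the series was not.

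Of 7924 barcodes, 7898 passed a minimum of 1000 genes and a maximum of 10% mitochondrial UMIs. Scrublet (in scanpy 1.11.5, expected share 3%) called 23 of these (0.291%). So low a share means that the caller has not worked, so doublets have to be taken as present, and leaving out the 6% of cells with the highest scores was an alternative. The 7875 kept cells had 50653202, 35198270 and 35406343 UMIs in libraries 1, 2 and 3, with ribosomal shares of 24.6%, 12.9% and 21.0%.

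UMIs summed per library and cell group were tested with edgeR 4.0.16 in R 4.3.3 (quasi-likelihood test, TMM scaling, filterByExpr, two-sided, Benjamini-Hochberg adjustment over all genes tested). The library was the block because the groups of a library come from 1 tube. DESeq2 1.42.0 was an alternative, as were no filter, no block, thinned cells, other thresholds and splits, and leaving out libraries, immune cells, or cells whose barcode has 10 or more A and T bases. The fit was tested on simulated data. Levels are CPM of a group's UMIs and are compared between groups, not between genes. Correlations used the natural log of 1 + UMIs per 10000. Gene positions are from GENCODE M21 (GRCm38) and promoters from RefSeq (GRCm38.p6), whose transcript starts can lie inside the annotated gene. The annotation names Ctgf Ccn2 and Cyr61 Ccn1. A second gene ID with the symbol Tead2 had no UMI and was not used.

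All members are named. From each list, up to 4 genes per direction with the largest changes among those called are named, and for Cyr61, Ctgf and the summed targets the 5 genes most alike. The members, the lists and the tests were chosen with earlier results of these data known.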

Additional observations from a re-analysis of the deposited data

How the results depend on the processing

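Of 488 values of single members under alternative settings, 415 kept their direction and their side of the threshold, 61 changed sign without being called, 0 reversed a called direction, 4 lost a call and 8 gained one. Amotl2 lost its call in Fos-high Six2-positive cells when cells were thinned and grouped again, and Cyr61 and Amotl2 lost theirs without the replicate block. The calls gained were those of Cyr61 at 2 Wnt4 UMIs and of Wwtr1 and Lats2 in Fos-high cells, as given above.

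Counts of called genes moved more. At the first step (1016 genes), DESeq2 called 382, thinned cells 162, the middle range of Fos 352 and the fit with no replicate block 86, and leaving out 1 library gave 292 to 1226. There 1 member was called with at least 2 UMIs, a setting for which the share of all genes called is not given here. At the second step (119 genes), the counts were 8 with thinned cells, 25 in the middle range of Fos, 254 with no filter, 69 with no replicate block and 35 to 181 without 1 library. For Fos-high against Fos-low Six2-positive cells (1657 genes), DESeq2 called 784, thinned cells gave 520, no replicate block gave 4 and leaving out 1 library 714 to 1114. There the members called were 1 with thinned cells, 4 with no filter, 0 with no replicate block, 4 without immune and haemoglobin-rich cells and 2 to 3 without 1 library. The counts over all genes with no filter and without those cells are not given here. The member counts in these settings are therefore not read as a result. In Wnt4-positive cells (187 genes), thinned cells gave 30, no filter 349, no replicate block 1 (with 0 members) and leaving out 1 library 22 to 200. The interaction (0 genes) gave 1 with thinned cells, 1 with a split at the median, 25 with no filter, 8 with a split by Egr1 and 0 to 15 without 1 library. The median correlation of members with Fos (0.016) was 0.005 as Spearman's rho and 0.016 to 0.028 without 1 library. The cause of these shifts was not tested.

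Thinned to 5000 UMIs, mean shares of Six2-positive cells with a UMI were 0.138% for Ctgf, 7.0% for Wwtr1 and 24.1% for Yap1, against 0.417%, 18.8% and 57.3% as counted. Results on Lhx1-positive cells are limited by their number, 19 to 31 per library.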

Other observations

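Cells in no stage, which held no UMI of Six2, Wnt4 or Lhx1, had Amotl2, Yap1 and Tead2 at levels near those of the Six2-positive cells. Cyr61 had 74.7, 280 and 167 CPM in them in libraries 1, 2 and 3, against 74.7, 215 and 115 in Six2-positive cells. It was thus higher in libraries 2 and 3, a difference that was not tested. Cyr61 averaged 174 ± 103 CPM in the cells in no stage and 135 ± 72.2 in Six2-positive cells (SD, n = 3 libraries). Amotl2 averaged 24.1 ± 3.77 and 26.7 ± 4.74, Yap1 55.1 ± 9.55 and 55.9 ± 10.2, and Tead2 343 ± 49.9 and 349 ± 49.2, in that order of groups. Their median depth was 10773 to 13846.5 UMIs per cell, against 12121.5 to 16233 in Six2-positive cells.

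Cells whose barcode has 10 or more A and T bases had Cyr61 at 86.9, 196 and 121 CPM in libraries 1, 2 and 3, against 72.9, 218 and 114 in the other Six2-positive cells.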
